A study of Homo sapiens with 18 samples.

Results

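The genes described here are 45 human ribosome biogenesis factors among the 58336 genes of the deposited count table. The list was chosen by the known roles of the proteins, with earlier results of these data known. All 45 were found by symbol and all 45 passed the filter on low counts. By role, 5 belong to the RNA polymerase I machinery, 3 to the box C/D and 4 to the box H/ACA small nucleolar ribonucleoproteins (snoRNPs), 5 are abundant nucleolar proteins, and 14 each act in the assembly of the small and of the large ribosomal subunit. Their mRNAs were measured in HEK293A cells, an adherent line from human embryonic kidney. One set of cells is labelled LATS1/2-DKO, a double knockout of LATS1 and LATS2 (called DKO below), and the other is labelled wild type. Both genes encode Hippo pathway kinases, which hold back the coactivators YAP and TAZ. Each genotype was treated for 4 h with 50 uM CdCl2, with 250 uM ZnCl2 or with water as the control (called in water below). This makes 6 groups of 3 libraries. Every group therefore shares the transformed HEK293A background, and whether the DKO cells are a single clone is not given in the sources used here.

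A ribosome is built in the nucleolus. RNA polymerase I, recruited to ribosomal DNA by UBTF and RRN3, makes a long precursor RNA, which the snoRNPs modify and which a large set of assembly factors folds, cuts and packs with ribosomal proteins into a small and a large subunit. The genes of these factors are known as targets of MYC, a transcription factor that binds the E-box CACGTG together with MAX.

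The E-box was found more often in the promoters of these genes than in promoters at large, and genes with and without it were mostly lower with zinc. RefSeq promoter windows (build GRCh38.p14, 250 bases before to 50 after a transcription start) were matched by symbol for 39 of the 45 genes. A gene counted as holding a motif when any of its windows held the letters on either strand. CACGTG stood in the windows of 17 of the 39 genes (43.6%), against 8.77% of 27305 genes in the table and 12.2% of the 12115 genes that were also tested. The ETS letters CCGGAAG stood in 17 of 39 (43.6%, against 12.2% and 20.1%), the GC box GGGCGG in 27 (69.2%, against 48.3% and 74.7%) and the TATA box letters TATAAA in 2, UTP20 and LTV1 (5.13%, against 13.99% and 9.16%). The E-box lay wholly within the 250 bases before a start in 5 of its 17 genes, and the ETS letters in all 17 of theirs. In wild type 14 of the 17 genes with an E-box and 19 of the 22 without it were lower with zinc. Their medians were -0.26 and -0.36 on the log2 scale, where 32% of all genes were lower and 29.4% higher (adjusted p under 0.05). In DKO 10 of the 17 and 17 of the 22 were lower, with medians of -0.12 and -0.21, where 27.7% of all genes were lower and 28.2% higher. The 26 bases around the E-box (capitals, gene strand, 5′ to 3′) are shown for 4 of the 5 E-box genes that were lowest with zinc against water in wild type, and for FBL and DDX21, which moved little. The first C of the motif lay at position -10 from the start in UTP20, 14 in PES1, 16 in NOP14, 15 in MRTO4, 7 in FBL and -31 in DDX21.
UTP20, chr12:101280085-101280110, plus strand: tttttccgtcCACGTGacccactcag
PES1, chr22:30591882-30591907, minus strand: cttggcagggCACGTGcgggaggaag
NOP14, chr4:2963376-2963401, minus strand: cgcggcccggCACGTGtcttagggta
MRTO4, chr1:19251809-19251834, plus strand: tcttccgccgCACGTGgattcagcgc
FBL, chr19:39846358-39846383, minus strand: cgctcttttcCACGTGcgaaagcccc
DDX21, chr10:68956606-68956631, plus strand: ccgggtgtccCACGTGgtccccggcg

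The 150 bases before a RefSeq start are shown for POLR1B and NOP56, the printable genes at the lower and the upper end of the zinc response in wild type. These starts lie downstream of the GENCODE gene starts given below. The POLR1B stretch therefore lies mostly, and the NOP56 stretch wholly, within the GENCODE gene. Capitals mark the ETS letters in POLR1B, which has 1 such match and no GC box here, and the 2 GC boxes in NOP56.
POLR1B, chr2:112541886-112542035, plus strand: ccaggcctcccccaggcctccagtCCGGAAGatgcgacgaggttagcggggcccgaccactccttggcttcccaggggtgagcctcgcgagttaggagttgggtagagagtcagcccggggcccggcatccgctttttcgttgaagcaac
NOP56, chr20:2652482-2652631, plus strand: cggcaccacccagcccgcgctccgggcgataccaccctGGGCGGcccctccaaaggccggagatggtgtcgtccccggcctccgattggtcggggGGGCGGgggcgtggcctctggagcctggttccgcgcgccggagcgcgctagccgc

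Libraries held 25478614 to 37148046 counts, and the 45 genes took 0.886% to 1.14% of them. Levels are given in CPM, counts scaled to a common library size after TMM normalisation, and fold changes as log2 values ± an approximate standard error (SE) from edgeR's quasi-likelihood test. A gene is called higher or lower at a Benjamini-Hochberg adjusted p under 0.05 over all 19393 genes tested. The design names the replicates biological but not as separate cultures, so the p-values take in no more than the spread among the libraries, which may be technical. These counts are shares of a library's mRNA, so less of an mRNA per cell, fewer cells that hold it and more mRNA of other genes cannot be told apart. In the zinc-treated wild-type group replicate 3 differed from the other libraries: chi-square over degrees of freedom came to 4.96 and 5.04 against them and to 1.88 between them. It had the highest level of its group for 36 of the 45 genes, by a median of 0.09 on the log2 scale, and results that rest on it are given with and without it. In water LATS1 mRNA was lower in DKO libraries, with 44.0 to 46.1 CPM, than in wild-type ones, with 77.3 to 82.0 CPM. LATS2 mRNA was called higher in DKO (0.18, edgeR adjusted p = 0.013): DKO libraries had 18.2 to 18.9 CPM and wild type 16.2 to 16.5 CPM. The edit is not described in the sources used here and may leave the mRNA in place, so the level of LATS2 does not check the label. Of the HEK293 lineage markers, 8 of 10 averaged 1 CPM or more in DKO cells and 6 of 10 in wild type, and NEFM and PAX2 stayed under 1 CPM in both.

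Per kilobase of exon, NPM1, NCL and FBL mRNAs stood highest of the 45. These levels per kb come from the strand-specific counts, unlike the CPM and counts elsewhere. NPM1, which encodes the nucleolar chaperone nucleophosmin, had 445 ± 22.7 CPM per kb in DKO cells in water and 517 ± 20.6 CPM per kb in wild-type cells in water (SD, n = 3 each). Nucleolin (NCL) had 210 ± 5.31 CPM per kb in DKO and 245 ± 5.19 in wild type, and the methyltransferase FBL, fibrillarin, had 169 ± 3.76 and 213 ± 3.68. NPM1 and NCL together held 37.9% to 38.7% of the summed CPM of the 45 genes in zinc-treated wild type and 35.1% to 35.7% in wild type in water. At the other end NOP2, a methyltransferase of the large subunit RNA, had 0.563 CPM per kb in DKO and 0.663 in wild type, and had 73 to 178 counts a library in the deposited table. Exons of another annotated gene overlap NOP2 on the same strand, so its count may fall short of its mRNA level. What share of its reads the overlap takes was not tested. The summed level of the 45 genes was 9812 to 10036 CPM in DKO with cadmium, 8887 to 9049 CPM in DKO with zinc and 9569 to 10030 CPM in DKO in water. In wild type it was 11977 to 12094 CPM with cadmium, 9583 to 10065 CPM with zinc and 10659 to 11084 CPM in water, so the zinc groups were the lowest of each genotype.

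**Figure D1:**
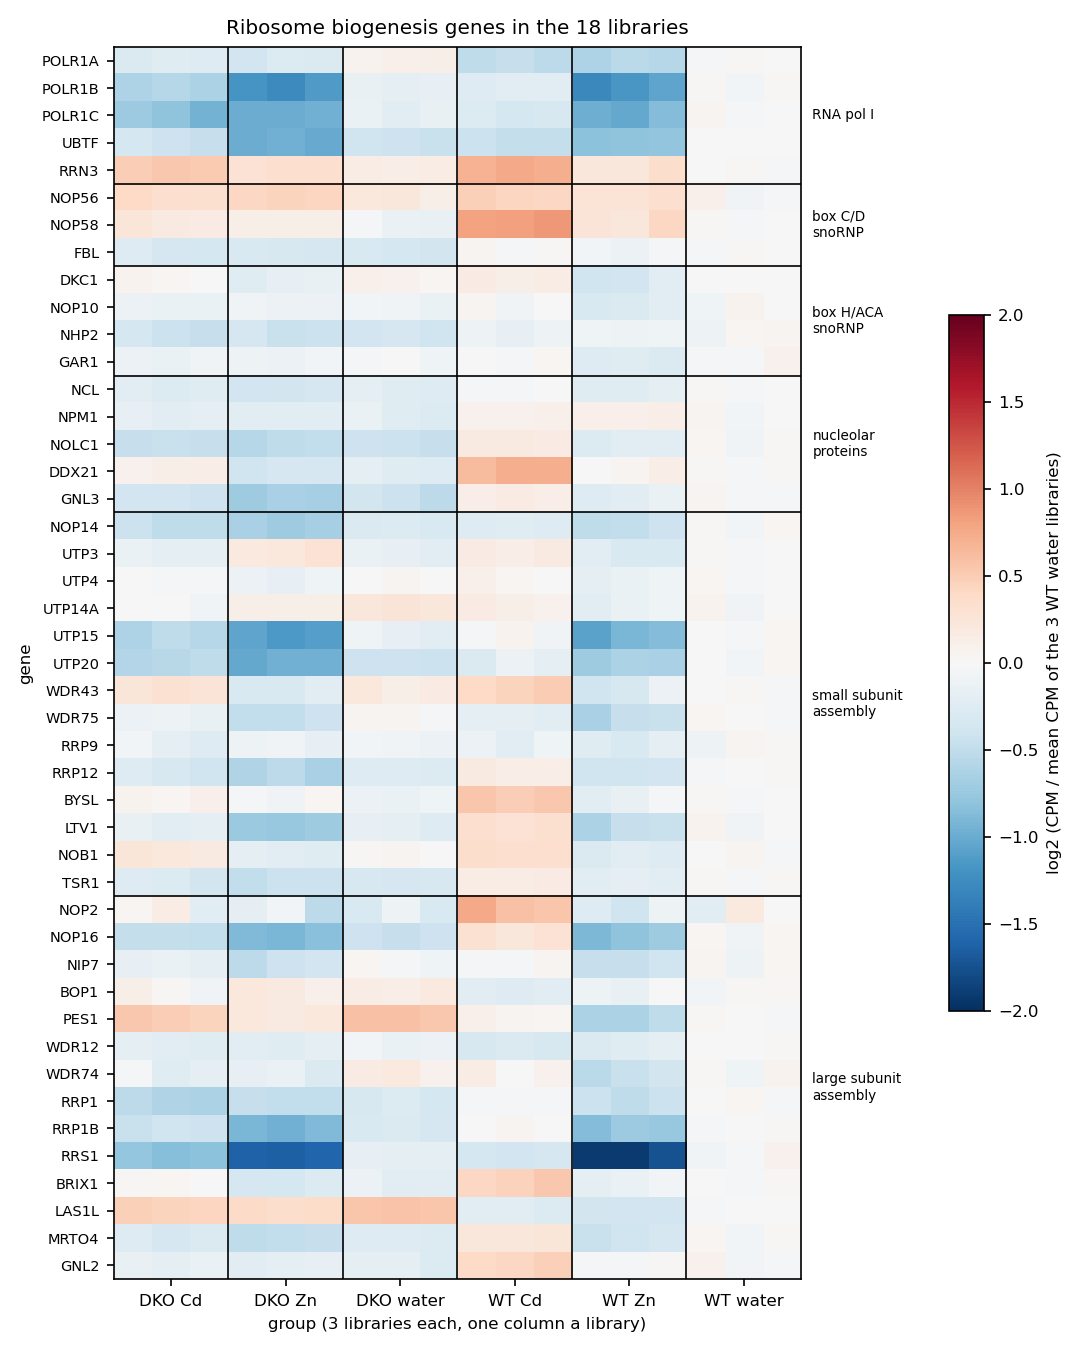
Log2 of the CPM of each gene in each library over the mean CPM of the 3 wild-type libraries in water (colour, red higher and blue lower). Rows are the 45 genes by role and columns the 18 libraries by group, DKO left of wild type (WT), and RRS1 is the darkest blue, in the zinc libraries of both genotypes.

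Zinc lowered most of these mRNAs in both genotypes, RRS1 by the most. In DKO cells 31 of the 45 were lower and 5 higher than in water, where 27.7% of all genes were called lower and 28.2% higher. In wild-type cells 37 were lower and 4 higher, where 32% of all genes were lower and 29.4% higher, and the counts were also 37 and 4 without replicate 3 of zinc-treated wild type. Of the 12011 genes that reached 5 CPM in at least 3 libraries, 35.5% were higher and 34.1% lower in DKO, and 35.9% and 38.4% in wild type. The median change of the 45 genes was -0.16 in DKO and -0.28 in wild type on the log2 scale, against 0.0010 and -0.011 over all genes. Changes of at least 1.5-fold downwards were seen for 5 of the 45 genes in DKO, where 7.75% of all genes were called and past that fold, and for 9 in wild type, where 11.4% were.

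RRS1, which with a partner brings the 5S RNP into the large subunit, changed most. It had 19.6, 19.3 and 19.97 CPM in zinc-treated DKO cells, against 53.8, 52.8 and 52.6 CPM in DKO in water. In wild type it had 16.03, 16.01 and 17.9 CPM with zinc, against 57.3, 59.0 and 64.1 CPM in water. All zinc libraries lay far below all water libraries of their genotype, for a log2 fold change of -1.43 ± 0.05 in DKO (edgeR adjusted p = 5.97e-25) and -1.85 ± 0.05 in wild type (edgeR adjusted p = 2.66e-28).

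Of the RNA polymerase I machinery, the 3 enzyme subunits and UBTF were lower with zinc in both genotypes and RRN3 was higher in both. POLR1B, the second-largest subunit (chr2:112541915-112577150), had 53.9, 50.0 and 55.5 CPM with zinc in DKO, against 109, 108 and 108 CPM in water. In wild type it had 50.0, 54.1 and 58.3 CPM with zinc, against 124, 117 and 124 CPM in water. The zinc libraries thus held about as much POLR1B in one genotype as in the other, and none overlapped with water (-1.03 ± 0.04 in DKO and -1.17 ± 0.04 in wild type). POLR1C, a subunit shared with RNA polymerase III, had 24.5, 24.3 and 24.8 CPM with zinc in DKO, against 44.0, 42.0 and 43.8 CPM in water. Its wild-type libraries had 24.6, 23.9 and 26.6 CPM with zinc, against 50.2, 47.0 and 48.3 CPM in water. No library overlapped between zinc and water (-0.82 ± 0.05 in DKO and -0.95 ± 0.05 in wild type). POLR1A, the largest subunit, had 129, 139 and 138 CPM with zinc in DKO, against 176, 180 and 182 CPM in water. Wild-type cells had 110, 115 and 113 CPM of it with zinc, against 165, 170 and 169 CPM in water. POLR1A was thus lower in every zinc library, by less than POLR1B (-0.41 ± 0.03 in DKO and -0.58 ± 0.03 in wild type). UBTF, the factor that holds ribosomal DNA open, had 136, 140 and 135 CPM with zinc in DKO, against 206, 205 and 201 CPM in water. Its wild-type libraries had 154, 156 and 158 CPM with zinc, against 274, 269 and 272 CPM in water, again with no overlap (-0.57 ± 0.03 in DKO and -0.80 ± 0.03 in wild type). RRN3, which makes the polymerase able to initiate (chr16:15060022-15094317), went the other way, with 102, 106 and 106 CPM with zinc in DKO, against 93.2, 92.1 and 92.7 CPM in water. In wild type RRN3 had 98.5, 97.96 and 107 CPM with zinc, against 84.0, 84.9 and 82.5 CPM in water, and the groups did not overlap (0.18 ± 0.03 in DKO and 0.27 ± 0.03 in wild type).

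The core proteins of the box C/D snoRNPs, which guide 2′-O-methylation of ribosomal RNA, were the main exception to the fall. NOP56 (chr20:2652145-2658393) had 661, 671 and 665 CPM with zinc in DKO, against 570, 575 and 537 CPM in water. In wild type it had 599, 596 and 620 CPM with zinc, against 527, 468 and 485 CPM in water. NOP58, its paralog in the same particle (chr2:202265716-202303666), had 202, 202 and 201 CPM with zinc in DKO, against 182, 170 and 168 CPM in water. Every zinc library of these paralogs lay above every water library of its genotype. Wild-type NOP58 was at 222, 218 and 247 CPM with zinc, against 189, 182 and 188 CPM in water. The rise was 0.25 ± 0.03 in DKO and 0.29 ± 0.03 in wild type for NOP56, and 0.22 ± 0.04 and 0.30 ± 0.04 for NOP58. FBL, the methyltransferase of the particle, had 388, 384 and 383 CPM with zinc in DKO, against 391, 379 and 374 CPM in water, and overlapped. In wild type FBL had 464, 443 and 469 CPM with zinc, against 475, 492 and 477 CPM in water, a call of -0.07 ± 0.03 that was lost with DESeq2, with the filter of 5 CPM and on single-strand counts.

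The box H/ACA proteins, which make pseudouridine, were all 4 lower with zinc in wild type (3 with DESeq2, which did not call NHP2). In DKO DKC1, the pseudouridine synthase, was the one called, and with library size alone GAR1 and NHP2 were called lower as well. DKC1 was at -0.26 ± 0.03 in DKO and -0.33 ± 0.03 in wild type, NOP10 at -0.0063 ± 0.04 and -0.28 ± 0.04, and GAR1 at -0.06 ± 0.04 and -0.26 ± 0.04. Among the nucleolar proteins NCL had 1368, 1382 and 1414 CPM with zinc in DKO, against 1558, 1505 and 1485 CPM in water. In wild type NCL had 1500, 1507 and 1551 CPM with zinc, against 1814, 1753 and 1769 CPM in water. NCL was thus lower in every zinc library (-0.13 ± 0.02 in DKO and -0.23 ± 0.02 in wild type). NPM1 had 1780, 1770 and 1786 CPM with zinc in DKO, against 1875, 1740 and 1704 CPM in water, and these overlapped (0.0047 ± 0.03, and lower at -0.08 with library size alone). In wild type NPM1 had 2207, 2205 and 2265 CPM with zinc, against 2141, 1987 and 2054 CPM in water, a call of 0.11 ± 0.03 (edgeR adjusted p = 7.61e-04) that was lost with library size alone as the scaling. The helicase DDX21 was lower with zinc in DKO (-0.12 ± 0.03), while in wild type it was at 0.07 ± 0.03 and not called. The GTPase GNL3, nucleostemin, was lower in both (-0.24 ± 0.04 in DKO and -0.20 ± 0.03 in wild type), as was the snoRNP chaperone NOLC1 (-0.09 ± 0.03 and -0.24 ± 0.03).

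All 14 small subunit factors were lower with zinc in wild type, and 11 of them in DKO, where UTP3 and BYSL were higher. The BYSL call (0.09 ± 0.04) was lost with library size alone, with DESeq2 and without the filter on low counts. UTP15, of the subcomplex that first binds the nascent precursor, had 30.6, 28.4 and 29.5 CPM with zinc in DKO, against 59.8, 56.2 and 54.2 CPM in water. In wild type UTP15 had 30.1, 33.4 and 34.6 CPM with zinc, against 63.6, 61.3 and 65.0 CPM in water. Zinc thus left about the same UTP15 level in both genotypes, with no overlap with water (-0.94 ± 0.05 in DKO and -0.95 ± 0.05 in wild type). Other members of that subcomplex moved less, WDR75 by -0.50 ± 0.04 in DKO and -0.51 ± 0.04 in wild type, WDR43 by -0.44 ± 0.04 and -0.28 ± 0.04, and UTP4 by -0.15 ± 0.03 and -0.13 ± 0.03. The scaffold protein UTP20 was at -0.56 ± 0.04 and -0.66 ± 0.04. Factors of the later cytoplasmic steps were also lower, such as LTV1 (-0.53 ± 0.05 in DKO and -0.51 ± 0.04 in wild type), NOB1, the nuclease that cuts the end of 18S rRNA (-0.23 ± 0.04 and -0.25 ± 0.04), and the GTPase-like TSR1 (-0.13 ± 0.03 and -0.20 ± 0.03).

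Of the 14 large subunit factors 11 were lower with zinc in each genotype and none was higher. After RRS1 the largest falls were those of RRP1B (-0.61 ± 0.03 in DKO and -0.79 ± 0.03 in wild type) and NOP16 (-0.44 ± 0.05 and -0.80 ± 0.05). PES1, BOP1 and WDR12 form one complex and differed among themselves. PES1 was at -0.37 ± 0.03 in DKO and -0.59 ± 0.03 in wild type, WDR12 at -0.11 ± 0.03 and -0.24 ± 0.03, while BOP1 was not called, at 0.0049 ± 0.04 and -0.08 ± 0.04. GNL2 and NOP2 were not called in either genotype. With library size alone BOP1, GNL2 and NOP2 were called lower in wild type (-0.15, -0.08 and -0.32), which made all 14 lower there. Of all 19393 genes 7173 were lower there under that scaling. The zinc responses of the 45 genes in the 2 genotypes, which share no library, had a Pearson r of 0.92 and a Spearman rho of 0.87 as a description over genes, which share libraries and are not independent. Of the genes called lower, 30 were shared, 96.8% of the 31 in DKO and 81.1% of the 37 in wild type. As 68.9% of the 45 genes were lower in DKO and 82.2% in wild type, a large overlap follows from these shares alone. No such overlap or correlation over all genes is given here. In wild type the signed log2 change with zinc had a Spearman rho of 0.42 (Pearson r 0.30) with the level per kb in water. Genes at higher levels thus tended to have smaller falls, though both values rest on the same water libraries. With the length of the gene the rho was -0.05. These are descriptions over the 45 genes, with no value over all genes.

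**Figure D2:**
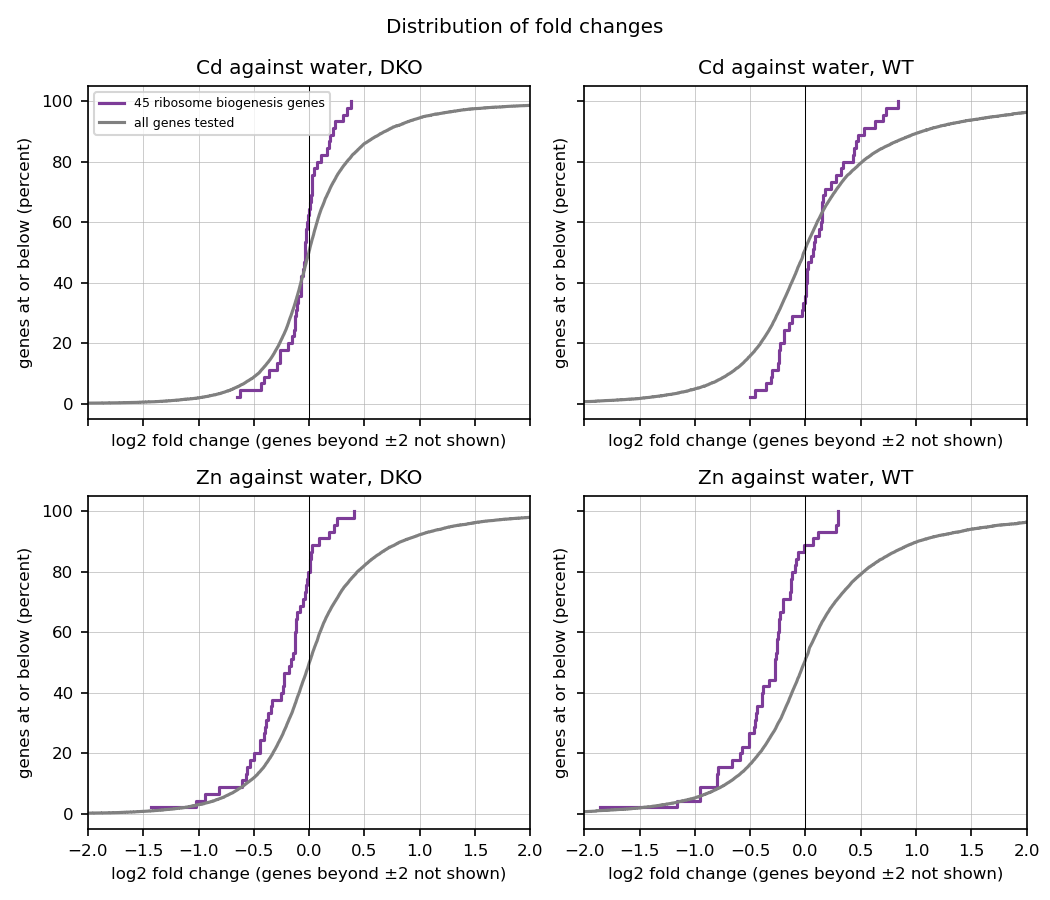
Cumulative distribution of log2 fold changes of the 45 genes (purple) and of all 19393 genes tested (grey), each metal against water, DKO left and wild type (WT) right, with cadmium above and zinc below. With zinc the purple curve lies left of the grey one over most of its range, with medians of -0.16 in DKO and -0.28 in wild type.

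**Figure D3:**
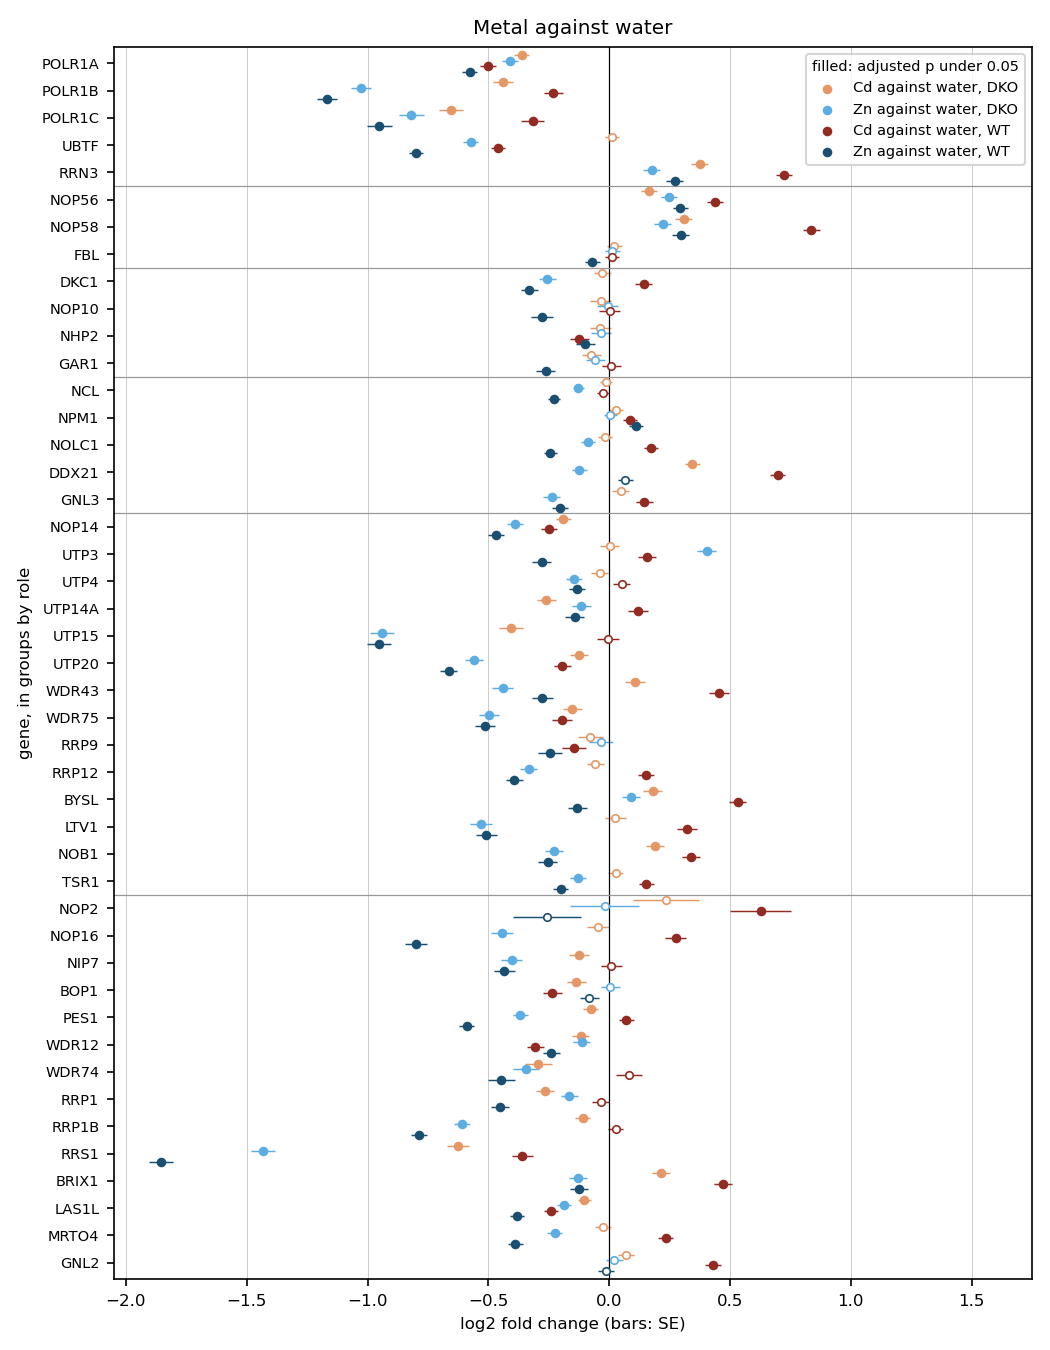
Log2 fold change of each gene against water (points, bars are SE) for the 4 metal treatments, with filled points for an adjusted p under 0.05. RRS1 in wild type with zinc is the lowest point at -1.85 and NOP58 in wild type with cadmium the highest at 0.84.

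With cadmium the list held genes called in both directions, and not all of these shares exceeded those of all genes. The 3 RNA polymerase I subunits were lower, as with zinc, while NOP56 and NOP58 were higher in both genotypes and many assembly factors were higher in wild type. NOP56 was at 0.16 in DKO, a call that was lost with library size alone (0.05), and at 0.44 in wild type. In DKO cells 8 of the 45 genes were higher and 17 lower than in water, where 23.2% of all genes were higher and 23.8% lower. Scaled by library size only, the DKO split was 4 and 33, where 2989 of all 19393 genes were higher and 7401 lower. In wild type 22 (48.9%) were higher and 13 (28.9%) lower, where 30% of all genes were higher and 31.7% lower. The share lower in wild type was thus near that of all genes. Scaled by library size only, the wild-type split was 13 and 21, where 4438 of all 19393 genes were higher and 8063 lower. Under that scaling the median of all genes was -0.12 in DKO (-0.0025 with TMM) and -0.13 in wild type (-0.014 with TMM), so the changes below are relative to the median gene. Of the 12011 genes that reached 5 CPM in at least 3 libraries, 31.1% were higher and 30.3% lower in DKO, and 36.2% and 39.1% in wild type. The median of the 45 genes was -0.04 in DKO and 0.07 in wild type. Called falls past 1.5-fold made up 4.92% of all genes in DKO, where 2 of the 45 genes fell that far, and 10.6% in wild type, where none did.

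NOP58 had 221, 212 and 210 CPM with cadmium in DKO, against 182, 170 and 168 CPM in water. Wild-type cells had 326, 331 and 341 CPM of it with cadmium, against 189, 182 and 188 CPM in water. NOP58 was thus higher in every cadmium library, and by far more in wild type (0.31 ± 0.04 in DKO and 0.84 ± 0.04 in wild type, edgeR adjusted p = 3.19e-09 and 4.74e-22). RRN3 had 118, 122 and 120 CPM with cadmium in DKO, against 93.2, 92.1 and 92.7 CPM in water. In wild type it had 135, 142 and 138 CPM with cadmium, against 84.0, 84.9 and 82.5 CPM in water, with no overlap in either genotype (0.37 ± 0.03 and 0.72 ± 0.03). DDX21, a helicase that acts in rRNA transcription and processing, had 820, 838 and 848 CPM with cadmium in DKO, against 675, 656 and 644 CPM in water. Its wild-type libraries held 1202, 1279 and 1285 CPM with cadmium, against 786, 751 and 786 CPM in water, and again did not overlap (0.34 ± 0.03 and 0.70 ± 0.03). NOP2 was at 5.57, 4.92 and 4.85 CPM with cadmium in wild type, against 2.80, 3.76 and 3.32 CPM in water (0.63 ± 0.12, edgeR adjusted p = 3.77e-05). It was not called in DKO (0.24 ± 0.14). BRIX1, a large subunit factor, had 126, 127 and 125 CPM with cadmium in DKO, against 115, 106 and 106 CPM in water, all higher (0.21 ± 0.04), and in wild type its change was 0.47 ± 0.04.

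At the lower end, POLR1C had 29.3, 27.9 and 25.1 CPM with cadmium in DKO, against 44.0, 42.0 and 43.8 CPM in water. In wild type POLR1C had 39.9, 37.8 and 39.0 CPM with cadmium, against 50.2, 47.0 and 48.3 CPM in water. It was lower in all cadmium libraries (-0.65 ± 0.05 in DKO and -0.32 ± 0.05 in wild type). RRS1 had 35.2, 33.4 and 34.2 CPM with cadmium in DKO, against 53.8, 52.8 and 52.6 CPM in water, and 47.0, 46.0 and 47.9 CPM with cadmium in wild type, against 57.3, 59.0 and 64.1 CPM in water. RRS1 therefore fell in both, by less than with zinc (-0.63 ± 0.05 in DKO and -0.36 ± 0.04 in wild type). POLR1A had 138, 141 and 140 CPM with cadmium in DKO, against 176, 180 and 182 CPM in water, and 118, 122 and 117 CPM with cadmium in wild type, against 165, 170 and 169 CPM in water. It was the lowest of the list in wild type (-0.50 ± 0.03), and was at -0.36 ± 0.03 in DKO. POLR1B had 79.6, 81.5 and 78.7 CPM with cadmium in DKO, against 109, 108 and 108 CPM in water (-0.44 ± 0.04), and was at -0.23 ± 0.04 in wild type. UTP15 had 41.2, 44.5 and 42.7 CPM with cadmium in DKO, against 59.8, 56.2 and 54.2 CPM in water (-0.41 ± 0.05). In wild type UTP15 overlapped, with 62.6, 66.7 and 60.2 CPM with cadmium, against 63.6, 61.3 and 65.0 CPM in water (-0.0044 ± 0.05).

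UBTF behaved differently in the 2 genotypes with cadmium. It had 214, 204 and 198 CPM with cadmium in DKO, against 206, 205 and 201 CPM in water, and these overlapped (0.01 ± 0.03, not called, and lower at -0.10 with library size alone). In wild type it had 202, 195 and 196 CPM with cadmium, against 274, 269 and 272 CPM in water (-0.46 ± 0.03). By role, nucleolar proteins were higher in 1 of 5 in DKO and 4 of 5 in wild type with none lower, and with library size alone in 1 and 1 of 5 with 3 and 1 lower. Small subunit factors were higher in 3 and lower in 5 of 14 in DKO and higher in 8 and lower in 4 in wild type (with library size alone 0 and 10, and 4 and 5). Large subunit factors were higher in 1 and lower in 9 of 14 in DKO (with library size alone 1 and 11). In wild type they were higher in 6 and lower in 4 (with library size alone 5 and 7). Over all genes the main counts gave 23.2% higher and 23.8% lower in DKO, and 30% and 31.7% in wild type. With library size alone 2989 of all 19393 genes were higher and 7401 lower in DKO, and 4438 and 8063 in wild type. NCL had 1515, 1477 and 1510 CPM with cadmium in DKO and 1752, 1726 and 1765 CPM with cadmium in wild type, and was called in neither (lower in both with library size alone). FBL likewise was not called (lower in both with library size alone), with 404, 382 and 375 CPM with cadmium in DKO and 500, 467 and 487 CPM in wild type. NPM1 had 1842, 1789 and 1791 CPM with cadmium in DKO, within its range in water (0.03 ± 0.03, lower with library size alone), and 2177, 2176 and 2206 CPM in wild type, a call of 0.09 ± 0.03 that was lost with library size alone. The changes called higher in DKO, 8 genes, were all among the 22 of wild type. Of the calls lower 10 were shared, 58.8% of the 17 in DKO and 76.9% of the 13 in wild type. Of the 45 genes 48.9% were higher and 28.9% lower in wild type, and no such overlap over all genes is given here. UTP14A was lower in DKO (-0.26 ± 0.04) and higher in wild type (0.12 ± 0.04), though the second call was lost with library size alone and without the filter on low counts. PES1 was also lower in DKO (-0.08 ± 0.03) and higher in wild type (0.07 ± 0.03), and both calls were lost with DESeq2 and the wild-type call with library size alone.

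**Figure D4:**
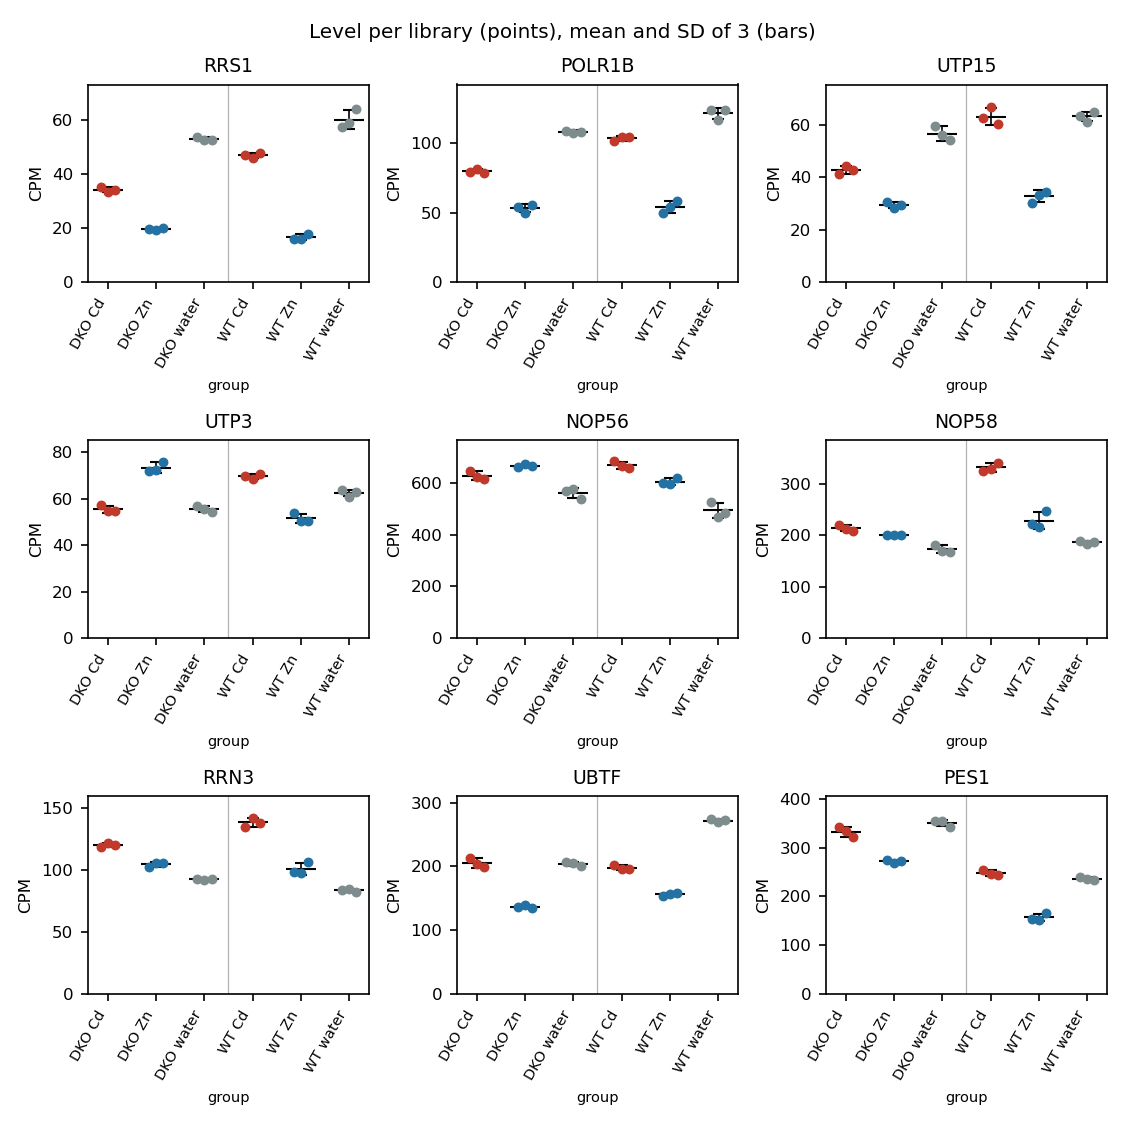
Level of 9 genes in CPM (y axes from 0) in every library (points) with the mean and SD of the 3 libraries of a group (bars), DKO left of wild type (WT) and cadmium (red) and zinc (blue) left of water (grey). RRS1, POLR1B and UTP15 are lowest with zinc in both genotypes, and UTP3 is highest with zinc in DKO, at 71.6 to 75.9 CPM.

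Set directly against zinc, cadmium left nearly all of these mRNAs at a higher level in wild type and most of them in DKO. The doses differ (50 and 250 uM), so this compares the 2 treatments as given. In DKO 28 of the 45 genes were higher with cadmium than with zinc and 5 lower, where 24% of all genes were higher and 24.3% lower. In wild type 40 were higher and 1, BOP1, was lower, where 27.3% were higher and 25% lower, and the counts were the same without replicate 3 of zinc-treated wild type. Of the genes that reached 5 CPM in at least 3 libraries, 30.9% were higher and 31.3% lower in DKO, and 33.5% and 33.3% in wild type. The largest difference was that of RRS1, at 0.81 ± 0.05 in DKO and 1.49 ± 0.05 in wild type, followed in wild type by NOP16 at 1.08 ± 0.05 (0.40 ± 0.05 in DKO). UTP3, a small subunit factor, was lower with cadmium than with zinc in DKO (-0.40 ± 0.04) and higher in wild type (0.43 ± 0.04). BOP1 was lower with cadmium in both, by -0.14 ± 0.04 in DKO and -0.15 ± 0.04 in wild type. The median difference of the 45 genes was 0.16 in DKO and 0.44 in wild type, against 0.00089 and 0.0033 over all genes.

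Without metal, DKO cells held less of most of these mRNAs than wild type, with no difference past 1.5-fold. In water 27 of the 45 genes were lower and 9 higher in DKO, where 32.1% of all genes were lower and 30.8% higher, and the median was -0.16 against -0.018 over all genes. None of the 45 was past 1.5-fold lower, as 10.7% of all genes were. Of the genes that reached 5 CPM in at least 3 libraries, 36.8% were higher and 39.9% lower. All 5 nucleolar proteins were lower in DKO. GNL3 had 190, 182 and 171 CPM in DKO, against 253, 241 and 240 CPM in wild type (-0.44 ± 0.03). NOLC1 had 448, 445 and 433 CPM in DKO, against 615, 571 and 604 CPM in wild type (-0.43 ± 0.03), and for both genes the groups lay well apart. NOP16 was at 42.2, 40.8 and 42.4 CPM in DKO, against 57.8, 53.7 and 57.8 CPM in wild type (-0.43 ± 0.04). UTP20 had 130, 131 and 129 CPM in DKO, against 176, 168 and 178 CPM in wild type (-0.42 ± 0.04), again with no overlap. UBTF was also lower (-0.41 ± 0.03), as were FBL (-0.34 ± 0.03), NCL (-0.23 ± 0.02) and NPM1 (-0.22 ± 0.03), whereas POLR1A (0.10 ± 0.03) and RRN3 (0.14 ± 0.03) were higher.

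The large subunit factors PES1 and LAS1L stood out on the upper side. PES1 (chr22:30576625-30607083) had 355, 354 and 343 CPM in DKO in water, against 240, 236 and 234 CPM in wild type (0.57 ± 0.03, edgeR adjusted p = 6.63e-19). LAS1L, the nuclease that cuts the spacer next to 28S rRNA (chrX:65512582-65534775), had 219, 221 and 220 CPM in DKO, against 148, 151 and 150 CPM in wild type (0.56 ± 0.03, edgeR adjusted p = 8.51e-20). Their DKO libraries lay far above all wild-type libraries, and that held with cadmium and with zinc as well. UTP14A, which activates a helicase of the small subunit, had 69.9, 71.2 and 70.2 CPM in DKO, against 62.6, 56.9 and 59.97 CPM in wild type (0.24 ± 0.04). NOP56 was at 570, 575 and 537 CPM in DKO, against 527, 468 and 485 CPM in wild type (0.18 ± 0.03), all higher. The genotypes differ in more than these genes. The summed level of the 10 HEK293 lineage markers was 2748 to 3064 CPM in DKO libraries and 863 to 1056 CPM in wild type, and that of 6 fibroblast markers 50.1 to 63.6 CPM in DKO and 8.83 to 13.04 CPM in wild type, with DCN and COL1A2 under 1 CPM in both. Not all lineage markers went the way of the sum: in water 7 of the 9 tested were higher in DKO and 2 were lower. The 6 keratinocyte markers summed to at most 0.316 CPM in DKO and 0.271 CPM in wild type with IVL listed at 0, and the 6 blood cell markers to at most 5.46 and 4.56 CPM with HBB listed at 0. The part of these markers in the results was not tested.

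The zinc response itself differed between genotypes for some of the genes, in most cases as a smaller fall in DKO. The difference of the responses, DKO minus wild type, was tested as an interaction. It was higher for 16 of the 45 genes and lower for 3, where 14.1% of all genes were higher and 10.5% lower, and without replicate 3 of zinc-treated wild type it was higher for 20 and lower for 1. Of the genes that reached 5 CPM in at least 3 libraries, 20.6% were higher and 16.6% lower. UTP3 (chr4:70688479-70690551) had the largest difference of 0.68 ± 0.05 (edgeR adjusted p = 2.36e-12). It had 71.6, 72.3 and 75.9 CPM with zinc in DKO, against 57.0, 55.5 and 54.0 CPM in water, and 53.6, 50.4 and 50.2 CPM with zinc in wild type, against 63.6, 60.7 and 62.8 CPM in water. With zinc UTP3 was thus above water in every DKO library and below it in every wild-type library (0.40 ± 0.04 and -0.28 ± 0.04). The differences of RRS1 (0.42 ± 0.07), NOP16 (0.36 ± 0.07) and RRP1 (0.29 ± 0.05) were falls that were smaller in DKO. RRP1, an early large subunit factor, had 69.6, 67.8 and 67.8 CPM with zinc in DKO, against 76.4, 78.9 and 74.9 CPM in water. In wild type RRP1 had 70.7, 67.5 and 71.2 CPM with zinc, against 94.9, 98.4 and 93.4 CPM in water, so the zinc levels met while those in water did not. NOP16 had 30.7, 30.0 and 31.5 CPM with zinc in DKO and 30.2, 32.3 and 34.6 CPM with zinc in wild type, which also overlapped. On the lower side DDX21 had a difference of -0.19 ± 0.04 (edgeR adjusted p = 9.89e-04), with 586, 612 and 615 CPM with zinc in DKO and 777, 806 and 850 CPM with zinc in wild type. The differences of WDR43 (-0.16 ± 0.06, edgeR adjusted p = 0.0443) and NPM1 (-0.11 ± 0.04, edgeR adjusted p = 0.0454) were lost without replicate 3 of zinc-treated wild type, at -0.08 and -0.09, and without several other single libraries.

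The cadmium response differed more often, and mostly the other way. DKO minus wild type, it was higher for 4 of the 45 genes and lower for 26, where 14% of all genes were higher and 14.1% lower, with a median of -0.15 against 0.014 over all genes. Of the genes that reached 5 CPM in at least 3 libraries, 21.7% were higher and 20.2% lower. The role groups below keep these counts of calls with library size alone as the scaling. NOP58 had the lowest difference (-0.53 ± 0.05, edgeR adjusted p = 1.67e-10), a rise that was smaller in DKO, and UTP15 followed at -0.40 ± 0.07, a fall seen in DKO where wild type overlapped with water. UTP14A was at -0.38 ± 0.06, with 59.5, 59.9 and 57.0 CPM with cadmium in DKO and 66.8, 64.6 and 63.3 CPM with cadmium in wild type. WDR74, a large subunit factor, was at -0.37 ± 0.08. It had 37.1, 32.3 and 33.6 CPM with cadmium in DKO, against 42.6, 43.8 and 40.5 CPM in water, and 42.2, 38.3 and 40.5 CPM with cadmium in wild type, against 38.6, 35.8 and 40.0 CPM in water. Only its DKO groups were apart. Of the small subunit factors 9 of 14 had a lower difference and none a higher one, and of the large subunit factors 9 of 14 had a lower one and 2 a higher one. The higher ones were UBTF (0.47 ± 0.04, edgeR adjusted p = 1.93e-11), WDR12 (0.19 ± 0.05), POLR1A (0.14 ± 0.04) and LAS1L (0.14 ± 0.04), genes that cadmium lowered more in wild type. WDR12 had 82.4, 80.7 and 80.4 CPM with cadmium in DKO, against 91.1, 86.7 and 87.0 CPM in water, and 76.0, 77.7 and 76.1 CPM with cadmium in wild type, against 94.4, 93.7 and 95.9 CPM in water. The POLR1A difference was lost without replicate 3 of cadmium-treated wild type (0.12, edgeR adjusted p = 0.0648).

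**Figure D5:**
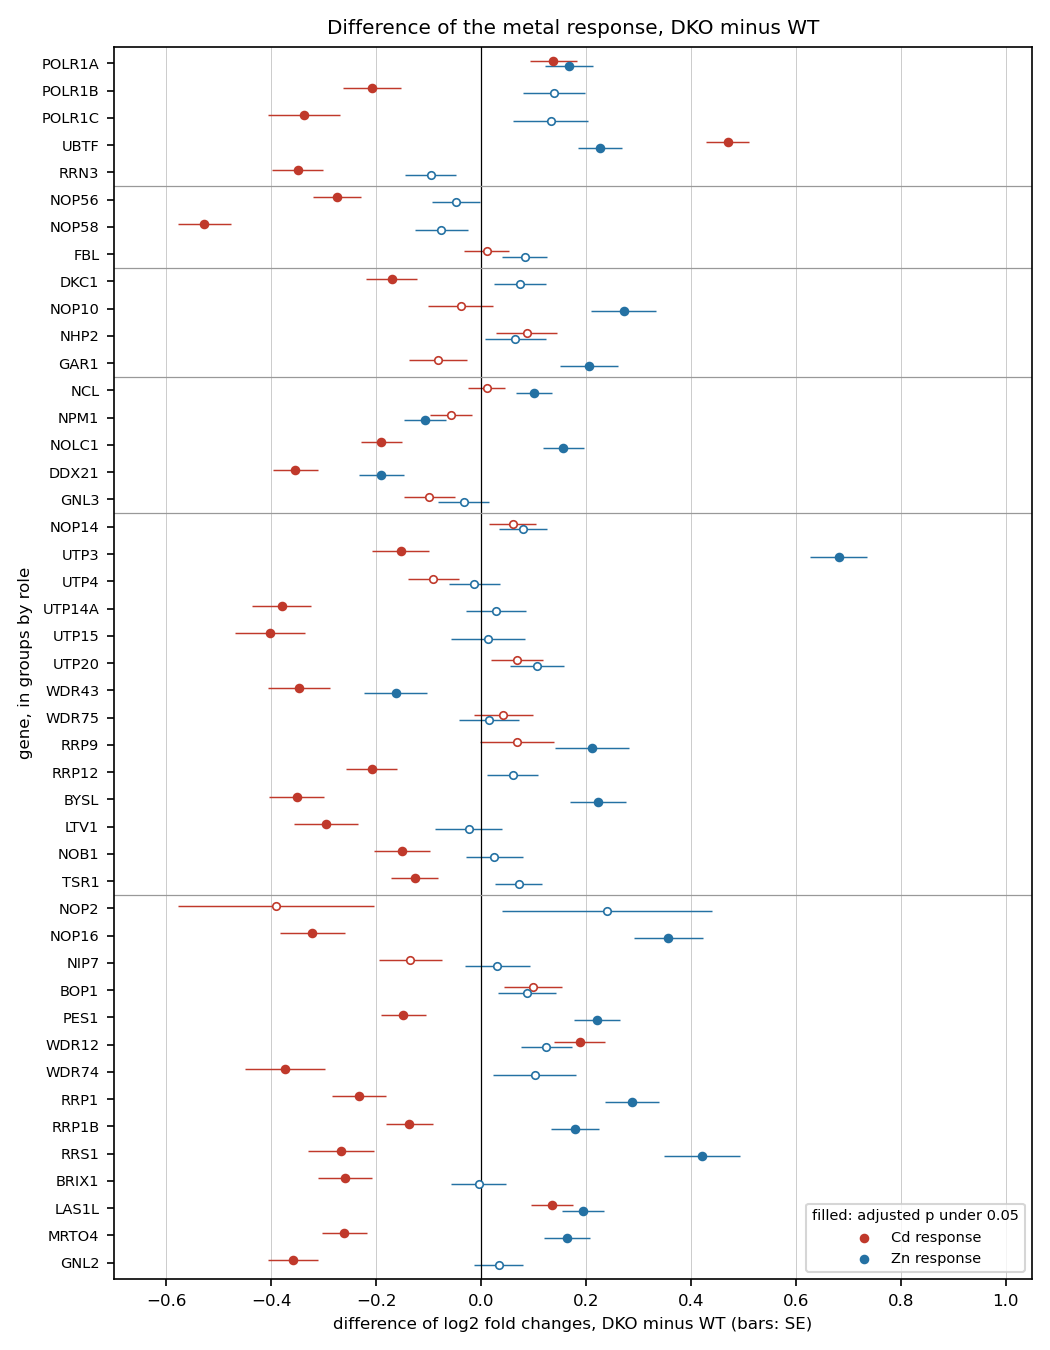
Difference of the metal response, DKO minus wild type, on the log2 scale (points, bars are SE) for cadmium (red) and zinc (blue), filled where the adjusted p was under 0.05. Most filled cadmium points lie left of 0 and most filled zinc points right of 0, with UTP3 at 0.68 for zinc and NOP58 at -0.53 for cadmium at the ends.

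A further 94 genes of the same pathway, listed by role and likewise with earlier results of these data known, were also mostly lower with zinc. With zinc 67 of the 94 were lower and 11 higher in DKO (27.7% and 28.2% of all genes), and 68 lower and 9 higher in wild type (32% and 29.4% of all genes). With cadmium 19 were higher and 47 lower in DKO (23.2% and 23.8% of all genes). In wild type 42 were higher and 30 (31.9%) lower (30% and 31.7% of all genes), so the share lower was near that of all genes. With library size alone the split was 4 and 61 in DKO and 29 and 44 in wild type. Of all 19393 genes 2989 were then higher and 7401 lower in DKO, and 4438 and 8063 in wild type. In water 45 were lower and 31 higher in DKO than in wild type, or 47.9% and 33.0% of the 94, against 32.1% and 30.8% of all genes, so the share higher was near that of all genes. IMP3, a protein of the U3 snoRNP, was at -1.68 ± 0.07 with zinc and -1.60 ± 0.07 with cadmium in DKO, and at -2.25 ± 0.07 with zinc and -2.01 ± 0.07 with cadmium in wild type. URB2 was lower with zinc in DKO (-1.35 ± 0.04) and with cadmium in both (-0.68 ± 0.04 in DKO and -0.91 ± 0.04 in wild type). RSL24D1, a placeholder in the large subunit, was the highest in all 4 comparisons with water, at 0.63 with cadmium and 0.38 with zinc in DKO, and at 1.09 with cadmium and 0.90 with zinc in wild type. Next came TAF1A with cadmium (0.30 in DKO and 0.82 in wild type) and TAF1C with zinc (0.26 and 0.30), both subunits of the selectivity factor SL1. POLR1G, an RNA polymerase I subunit, fell by 1.89 with zinc in wild type. The GTPase GTPBP4 was far lower in DKO in water, at 97.3 ± 0.974 CPM against 227 ± 13.1 CPM in wild type (SD, n = 3 each, -1.22 ± 0.03), followed by the helicase DDX56 (-0.62), while AATF (0.59) and TSR2 (0.56) were the highest. The difference of the zinc response was higher for 30 and lower for 9 of the 94 (14.1% and 10.5% of all genes), and that of the cadmium response higher for 10 and lower for 42 (14% and 14.1% of all genes). The zinc difference ran from -0.51 for RSL24D1 and -0.26 for NOL9 to 0.58 for PPAN and 0.90 for POLR1G, and the cadmium difference from -0.66 for PPAN and -0.52 for TAF1A to 0.34 for POLR1G and 0.41 for IMP3.

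MYC mRNA lay at 37.5 ± 1.49 CPM with cadmium, 18.4 ± 1.43 CPM with zinc and 38.2 ± 0.432 CPM in water in DKO, and at 13.6 ± 1.12 CPM with cadmium, 4.26 ± 0.436 CPM with zinc and 66.5 ± 3.14 CPM in water in wild type (SD, n = 3 each). Zinc lowered it in both genotypes, while cadmium lowered it in wild type (-2.30 ± 0.06) and left it uncalled in DKO (-0.03 ± 0.05). The part of MYC in these changes was not tested.

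Some of these values rest on counts that reads of other genes can touch. The deposited counts ignore strand, and 7 of the 45 genes had over 110% as many reads in the strand-specific column as in the column used, NHP2 with 213%, WDR74 with 161%, NOB1 with 145%, TSR1 with 144%, NOP14 with 133%, NOP16 with 132% and BRIX1 with 116%. Exons of other genes overlap each of these on the opposite strand. On the strand-specific counts no count of genes called changed by more than 1 in any of the 9 comparisons, and the zinc difference of POLR1C, not called in the main counts (0.13 ± 0.07), was called there at 0.31 (edgeR adjusted p = 7.26e-04). POLR1C lies across from XPO5 and YIPF3, and the reads of its other strand came to 99.6% of its own count. Annotated genes other than small RNAs hosted by the gene overlap exons of RRS1, LTV1, WDR74 and NOP2 on the same strand, which strand-specific counts do not resolve, and the counts of NOP2 were low. RRN3 has 3 annotated pseudogenes whose counts came to 8.47% of its own, and NPM1 has 45 whose counts came to 3.02%, so reads of these families could be split between copies.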

How the data were processed

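The deposited table held whole-number read counts per gene for 18 mRNA libraries, from RNA extracted with TRIzol and prepared with a stranded Illumina TruSeq mRNA kit per the labels' protocols. The submitters' processing notes name STAR and the builds hg38 and GRCh38.p13, with no version of STAR. The authors' counts ignored strand: the table equals the both-strands column in 18 of 18 per-sample files. Gene symbols came from GENCODE 29.

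Counts were tested with edgeR 4.0.16 (R 4.3.3, TMM, filterByExpr with a minimum count of 10, quasi-likelihood test) in one model of the 6 groups, and p-values were adjusted over the 19393 genes tested, with a threshold of 0.05. Standard errors are the log2 fold change over the square root of F. The 45 genes, the further lists and the tests were chosen with earlier results of these data known. The genes named with values in every library are the 4 lowest and 4 highest called in each comparison with water and in DKO against wild type in water, plus NCL, NPM1, FBL, POLR1A, RRN3 and UBTF. For the differences of response they are the 4 lowest and 4 highest called, except that WDR43 has fold changes only and LAS1L has library values in water only. For the further pathway genes the 2 lowest and 2 highest with a mean of at least 5 CPM are named, mostly by fold change. For cadmium against zinc only fold changes are given. Other genes of the list are given by role with a fold change, and some were picked with their values in view.

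Libraries held 25478614 to 37148046 counts, and the median biological coefficient of variation was 3.93%. In simulated data 50 genes for each fold, with a mean of at least 5 CPM, were changed in a single zinc group. Unchanged genes had the same level in all groups. There the zinc comparison in wild type recovered 86% of genes changed 1.25-fold and 100% of those changed 1.5-fold, and the zinc difference 68% and 98%. Far more genes changed in the data themselves, so these shares need not hold for them or for genes with low counts. Alternatives were DESeq2 1.42.0, library size alone, other count filters, single-strand counts, each library left out and the replicate number as a block. For cadmium against zinc, the deviations of same-numbered libraries had correlations of 0.153, 0.189 and 0.161 in wild type and of 0.230, 0.057 and 0.286 in DKO. The labels do not say that a number marks a shared batch, and these correlations do not settle it. With the replicate number as a block over all libraries, cadmium against zinc in wild type gave the same 40 higher and 1 lower.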

Additional observations from a re-analysis of the deposited data

Results flagged for a closer look

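The responses below differed between DKO and wild type in an interaction test, DKO minus wild type on the log2 scale, with 3 libraries in each of the groups. For zinc the difference was 0.68 for UTP3, 0.42 for RRS1, 0.36 for NOP16 and 0.29 for RRP1. It was -0.19 for DDX21, -0.16 for WDR43 and -0.11 for NPM1. For cadmium the difference was 0.47 for UBTF, 0.19 for WDR12, 0.14 for POLR1A and 0.14 for LAS1L. It was -0.53 for NOP58, -0.40 for UTP15, -0.38 for UTP14A and -0.37 for WDR74. UTP3 with zinc and UTP14A with cadmium were called in opposite directions in the genotypes, though the wild-type call of UTP14A was lost with library size alone and without the filter on low counts. The differences of WDR43 and NPM1 with zinc and of POLR1A with cadmium were not called in some fits that left out a single library.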

How the results depend on the processing

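Scaled by library size only, cadmium against water gave 4 higher and 33 lower of the 45 genes in DKO and 13 and 21 in wild type. Of all 19393 genes 2989 were then higher and 7401 lower in DKO, and 4438 and 8063 in wild type. Under the same scaling cadmium against zinc in wild type gave 3 of the 45 lower, where 5947 of all genes were lower. With at least 5 CPM in 3 libraries cadmium against zinc in wild type gave 2 of the 45 lower. With DESeq2 cadmium against zinc in DKO gave 3 lower. Leaving out single libraries, the zinc difference was lower for 1 to 3 genes (1 without replicate 3 of zinc-treated wild type, replicate 2 or 3 of wild type in water, replicate 1 or 2 of zinc-treated DKO or replicate 1 of DKO in water), and cadmium against zinc was lower for 3 to 5 genes in DKO (3 without replicate 2 or 3 of cadmium-treated DKO). All other counts of genes called stayed within 1.5 times. Of 749 alternative values of the 55 named changes, 731 kept direction and call, 18 lost the call and none reversed. Those were NPM1 with zinc in wild type (0.05, edgeR adjusted p = 0.114, library size only), WDR43 and NPM1 in the zinc difference (8 leave-outs each) and POLR1A in the cadmium difference. Why was not tested.

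With the replicate block the zinc response in wild type gave 5 higher and 37 lower, the zinc difference 17 and 3, and cadmium against zinc in DKO 29 and 5, and the other counts did not change. Genes that gained a call were DDX21 with zinc in wild type, WDR12 in the zinc difference and BYSL for cadmium against zinc in DKO. Over all pairs of groups compared, the same-number correlations ran between -0.03 and 0.286. Whether a number marks a shared batch cannot be told from them.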
